A study of Mus musculus with 8 samples.

Results

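Acinar cells are the exocrine cells that surround the islets of Langerhans. They make the digestive enzymes of the pancreas, store many of them as inactive zymogens in granules and release them into the ducts, whereas the islet cells secrete hormones into the blood. The acinar program is held by the transcription factor complex PTF1, in which Ptf1a is joined by the RBPJ relative Rbpjl, together with Nr5a2 and Bhlha15 (Mist1). Islets are freed from this tissue by collagenase, and messages for digestive enzymes are widely used to gauge exocrine material in an islet preparation.

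The genes described here are 42 acinar genes, namely digestive enzymes, Reg proteins, granule proteins and acinar transcription factors, taken by name and not by any measured value. Of these, 39 had a probe set that names 1 gene, among 22180 genes with 1 symbol, and the brightest probe set of each gene was used. The elastase gene Cela2a and the trypsinogen gene Try10 stood only on probe sets shared with another gene, and Pnlip, pancreatic lipase, had none listed in the annotation used, so these 3 have no value.

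The levels come from islets of 4 Fzd9 KO and 4 Fzd9 WT mice on a C57Bl/6 background, with 1 Affymetrix Mouse Gene ST array per mouse. All 8 mice carried MycER, a Myc protein that tamoxifen switches on, under the insulin promoter, and BclXL, an inhibitor of apoptosis, under the rat insulin promoter, and all were young adults of either sex given tamoxifen for 3 d. The receptor Fzd9 was deleted throughout the body and not in β-cells alone, and no mouse without MycER and none without tamoxifen was on the arrays. Each array holds RNA of a pool of islets from 1 mouse that were picked by hand under a dithizone stain after collagenase digestion and a filtering step against exocrine tissue, according to the methods, whereas the sample labels speak of weighed insulinoma tissue. Of 17 β-cell genes measured, 16 lay above the gauge of background used here, which is the 95th percentile (3.52 on the log2 scale) of 1405 probe sets for olfactory and vomeronasal receptors. All values are log2 expression after RMA, so that 1 unit is a factor of 2.

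The arrays of KO mouse 1 and WT mouse 3 stood apart from the others. Their mean correlations with the other arrays were 0.893 for KO mouse 1 and 0.897 for WT mouse 3, and 0.917 to 0.926 for the other 6. Their receptor probe sets, the gauge of background, also read higher, with medians of 2.37 in KO mouse 1 and 2.28 in WT mouse 3 and 1.84 to 2.17 in the other mice. Median spreads, differences between KO and WT and counts of calls are therefore given with these mice and without them, and the levels, ranks and excesses of single genes with all 8 mice. The 39 genes were not equally bright. Their mean over all 8 arrays was above the gauge for 18 genes and not above it for 21, and for the dim genes a change could be missed. Since the filter uses the mean over all arrays, a gene can pass it through KO mouse 1 alone. Among the 18, Reg3b was above the gauge in 3 mice and Cela3b in 4, KO mouse 1 among them. Counts over the 18 genes that turn on KO mouse 1 are thus descriptions and no test.

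Promoters of 4 members are shown because they belong to genes whose levels are compared below. Klk1 and Reg1 spanned more than the other members from the lowest to the highest mouse, Prss2 encodes a trypsinogen, and Bhlha15, a transcription factor, did not share their pattern. Each run holds 250 bases before and 50 bases after the start of the gene in RefSeq (build GRCm38.p6), 5′ to 3′ on the strand of the gene. Capitals mark the E-box CACCTG and the RBPJ motif TTCCCA, which are the letters that PTF1 is known to read. They also mark TATAAA, the letters of the TATA box. Each was sought on either strand and at any place in the run, so a marked TATAAA need not be a TATA box.
Klk1 (chr7:44225110-44225409, plus strand): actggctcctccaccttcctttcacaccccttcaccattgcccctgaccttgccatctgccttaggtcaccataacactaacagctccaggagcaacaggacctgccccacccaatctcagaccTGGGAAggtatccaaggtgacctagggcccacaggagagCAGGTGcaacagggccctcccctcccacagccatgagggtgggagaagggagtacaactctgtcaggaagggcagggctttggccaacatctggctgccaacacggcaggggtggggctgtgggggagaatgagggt
Reg1 (chr6:78425733-78426032, plus strand): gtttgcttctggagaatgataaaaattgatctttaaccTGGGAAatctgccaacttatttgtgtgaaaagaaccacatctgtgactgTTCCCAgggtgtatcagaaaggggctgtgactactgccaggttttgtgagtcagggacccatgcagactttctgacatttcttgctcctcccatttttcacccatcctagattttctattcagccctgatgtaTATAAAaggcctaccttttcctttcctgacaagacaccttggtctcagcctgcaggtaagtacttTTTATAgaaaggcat
Prss2 (chr6:41521526-41521825, plus strand): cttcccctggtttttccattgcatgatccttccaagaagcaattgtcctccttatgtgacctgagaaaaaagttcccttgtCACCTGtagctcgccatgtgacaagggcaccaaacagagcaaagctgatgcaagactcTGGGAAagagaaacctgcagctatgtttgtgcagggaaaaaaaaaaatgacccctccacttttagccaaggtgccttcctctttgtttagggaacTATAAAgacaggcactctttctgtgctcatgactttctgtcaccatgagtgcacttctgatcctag
Bhlha15 (chr5:144190036-144190335, plus strand): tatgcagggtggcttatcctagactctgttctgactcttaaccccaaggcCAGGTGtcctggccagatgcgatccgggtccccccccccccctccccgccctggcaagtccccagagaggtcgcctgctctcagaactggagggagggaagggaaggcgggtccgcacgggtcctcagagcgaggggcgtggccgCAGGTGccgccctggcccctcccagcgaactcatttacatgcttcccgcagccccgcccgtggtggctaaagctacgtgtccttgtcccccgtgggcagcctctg

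A promoter entry was found for 32 of the 39 genes. The E-box CACCTG stood in 20 of these 32 (62.5%), against 22.6% of all 27025 genes with a promoter of this length. The RBPJ motif TTCCCA stood in 20 of 32 (62.5%), against 28.3% of all genes, and both together in 10 (31.2%), against 6.10%. TATAAA stood in 14 (43.8%), against 15.7%. Other letters searched were less unequal, with CAGCTG in 6 (18.8% against 18.3%), TTTCCC in 10 (31.2% against 27.9%) and AAGGTCA, a motif read by Nr5a2, in 3 (9.38% against 5.38%). The TTCCCA and TTTCCC motifs can overlap. These 6 motifs were settled on after other letters had been tried, and a match is a run of letters and not a binding site.

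Most acinar genes varied more between mice than the median gene did, and the KO and WT mice overlapped. The 4 transcription factors did not vary more in their median SD. The mean over the 39 genes was 5.44, 3.85, 3.96 and 3.18 in KO mice 1 to 4, against 3.76, 3.34, 4.56 and 3.61 in WT mice 1 to 4. KO mouse 1 was the highest of all 8 mice and KO mouse 4 the lowest, so that the KO mice enclosed all WT mice. The mean of the 4 mouse means was 4.11 ± 0.95 in KO and 3.82 ± 0.52 in WT islets (SD, n = 4 each). Without KO mouse 1 and WT mouse 3 the SD of the mouse means was 0.422 in KO and 0.213 in WT islets. The median SD of a gene between mice was 0.964 in KO and 0.502 in WT islets over the 39 genes, while over all genes with 1 symbol it was 0.303 in KO and 0.324 in WT. Without these mice it was 0.475 in KO and 0.406 in WT islets over the 39 genes, and 0.245 in KO and 0.272 in WT over all genes. From the lowest to the highest mouse a gene spanned 2.25 log2 units in the median, against 1.00 over all genes, and without these mice 1.04, against 0.788. With values below the gauge set to the gauge, 11 of the 39 spanned more than 3 units, a factor of 8. In bulk RNA, more acinar cells and more RNA for these enzymes in each cell, acinar or other, cannot be told apart. Background also read higher in KO mouse 1 and WT mouse 3, and its part in these spreads was not tested.

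KO mouse 1 had the highest of the 8 levels for 28 of the 39 genes, a rank it held for 15.3% of all genes. It was the highest of the KO mice for 31 genes (28.2% of all genes), and WT mouse 3 was the highest of the WT mice for 30 (29.9% of all genes). For 24 genes these were the 2 highest mice of the 8, as for 6.77% of all genes. At the low end, KO mouse 4 was the lowest KO mouse for 31 genes (23.5% of all genes) and WT mouse 2 the lowest WT mouse for 21 (20.6% of all genes). The level above the gauge was reached by 30 of the 39 genes in KO mouse 1, by 25 in WT mouse 3 and by 12 in KO mouse 4. The gauge is the same for every mouse, but background differed between arrays. The 95th percentile of the receptors within an array was 4.57 in KO mouse 1, 4.03 in WT mouse 3 and 4.19 in KO mouse 4. In the other mice it was 3.14 to 3.80, so these counts also hold the difference in background.

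**Figure D1:**
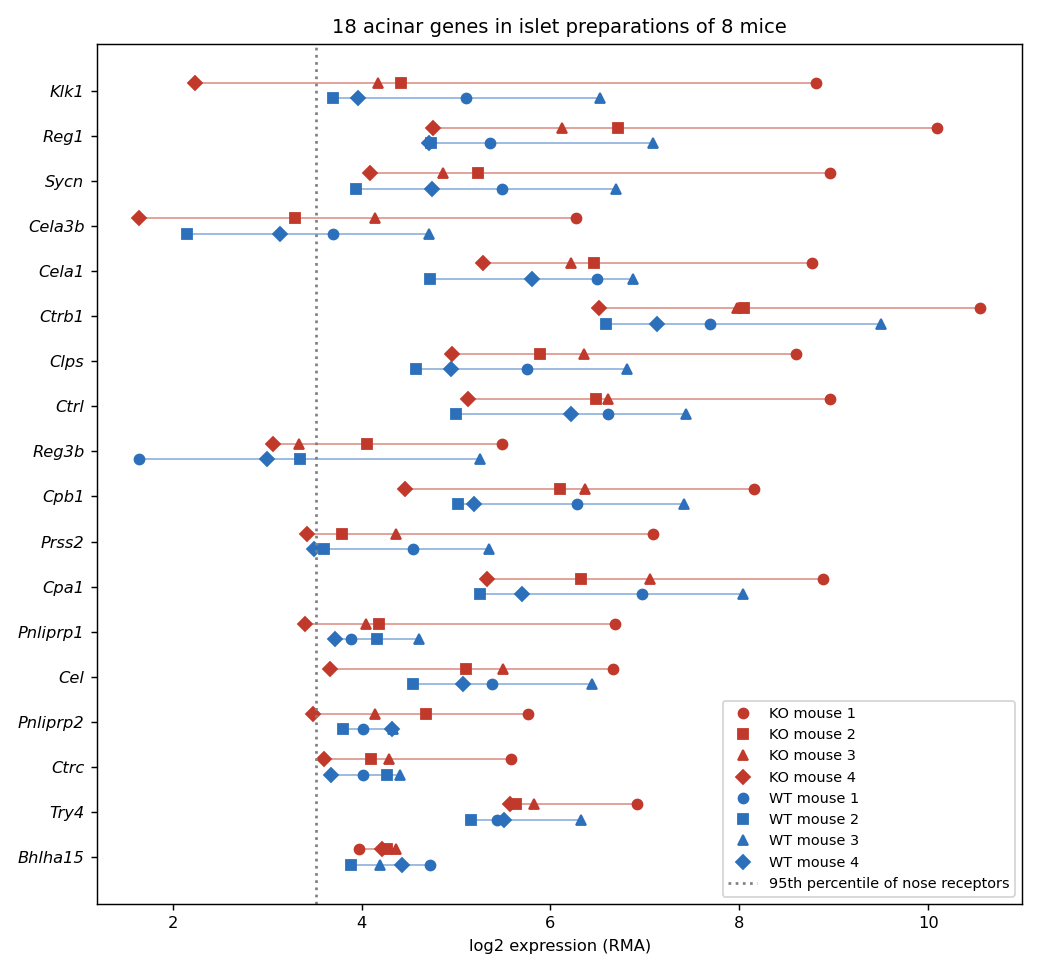
Log2 expression (RMA, horizontal axis) of the 18 acinar genes whose mean was above the gauge of background, with 1 point per mouse, KO in red above WT in blue, lines from the lowest to the highest mouse and the gauge (3.52) as a dotted line; genes are ordered by their span. KO mouse 1 is the highest point for 17 of the 18 genes, Bhlha15 being the exception, and the KO and WT ranges overlap for every gene. KO mouse 1 enters the mean that chose the 18 genes, so this count is no test.

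Proteases and their zymogens, the largest group, shared this pattern. Ctrb1, chymotrypsinogen B, was at 10.55, 8.05, 7.97 and 6.51 in the KO mice 1 to 4, against 7.69, 6.58, 9.49 and 7.12 in the WT mice 1 to 4. Cpa1, which encodes carboxypeptidase A and cuts amino acids from the end of a peptide, was at 8.89, 6.32, 7.05 and 5.32 in KO, against 6.96, 5.25, 8.04 and 5.70 in WT. In both genes KO mouse 1 and WT mouse 3 were high and KO mouse 4 and WT mouse 2 low, and the genotypes overlapped.

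Cpb1, carboxypeptidase B, had 8.15, 6.10, 6.36 and 4.46 in KO islets and 6.28, 5.02, 7.41 and 5.19 in WT islets. The elastase gene Cela1 had 8.77, 6.46, 6.22 and 5.29 in KO islets and 6.49, 4.72, 6.87 and 5.81 in WT islets. Cela3b, a further elastase family member, was near the gauge, with 6.27, 3.29, 4.14 and 1.65 in KO islets and 3.70, 2.15, 4.71 and 3.14 in WT islets. The order of the mice was thus much the same for enzymes of different cleavage specificity. Ctrl, a chymotrypsin-like protease, spanned 5.13 to 8.96 in KO and 5.0 to 7.44 in WT islets, and Ctrc, chymotrypsin C, which activates and degrades other zymogens, spanned 3.61 to 5.59 in KO and 3.68 to 4.40 in WT islets.

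Klk1, a tissue kallikrein that releases kinins, was at 8.81, 4.42, 4.17 and 2.24 in the KO mice 1 to 4, against 5.11, 3.70, 6.53 and 3.96 in the WT mice 1 to 4. KO mouse 1 was the highest of the 8 and KO mouse 4, which was not above the gauge, the lowest. The means were 4.91 ± 2.78 in KO and 4.82 ± 1.29 in WT islets (SD, n = 4 each).

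Trypsinogens, the precursors of trypsin, are near-identical copies that lie side by side in the genome, and the probes of the array may not tell them apart. Prss2 was at 7.09, 3.80, 4.37 and 3.43 in KO islets, against 4.54, 3.61, 5.35 and 3.5 in WT islets. Try4 was at 6.91, 5.64, 5.83 and 5.57 in KO islets, against 5.43, 5.15, 6.32 and 5.5 in WT islets, a much narrower span with the same 2 mice on top. Try5 and Prss3 were not above the gauge in the mean, with 1.54 to 3.04 and 2.76 to 4.15 in KO islets and 1.2 to 2.38 and 2.69 to 3.54 in WT islets. In Prss3 the highest WT mouse was mouse 4, and WT mouse 3 was at 3.31. The trypsinogen gene 2210010C04Rik also lacked a raised level in WT mouse 3. It was at 5.66 in KO mouse 1 and between 1.26 and 2.35 in the other KO mice, against 1.09 to 2.77 in the WT mice and 2.00 in WT mouse 3, and KO mouse 1 alone was above the gauge.

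Among genes for the digestion of lipid, Clps, the colipase that anchors lipase to fat droplets, was at 8.60, 5.88, 6.35 and 4.96 in KO islets, against 5.75, 4.58, 6.81 and 4.94 in WT islets. Cel, carboxyl ester lipase, was at 6.66, 5.11, 5.5 and 3.67 in KO islets, against 5.38, 4.54, 6.44 and 5.07 in WT islets. WT mouse 3 was less prominent in the lipase-related genes Pnliprp1 and Pnliprp2. Pnliprp1 was at 6.68 in KO mouse 1, with 3.40 to 4.19 in the other KO mice, against 3.72 to 4.61 in WT mice, and Pnliprp2 was at 5.76 in KO mouse 1, with 3.48 to 4.68 in the other KO mice, against 3.80 to 4.33 in WT mice. Pla2g1b, the secreted phospholipase A2 of pancreatic juice, was at 4.76 in KO mouse 1, with 2.02 to 3.62 in the other KO mice, against 2.91 to 3.01 in WT mice. Amy1, the amylase gene expressed in salivary gland and liver, was not above the gauge in any mouse, at 1.28 to 2.26 in KO and 1.91 to 2.21 in WT islets, and KO mouse 1 was the lowest.

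Reg proteins are secreted lectin-like proteins that acinar cells make, several of which are induced when the pancreas is injured or inflamed. Whether acinar cells were their source in these islets was not tested. Reg1 was at 10.09, 6.71, 6.12 and 4.76 in the KO mice 1 to 4, against 5.36, 4.74, 7.09 and 4.71 in the WT mice 1 to 4. KO mouse 1 stood far above every other mouse, and KO mouse 4 lay with the 2 lowest WT mice. Reg3b was at 5.49, 4.06, 3.34 and 3.06 in KO islets, against 1.65, 3.35, 5.26 and 3.00 in WT islets, so that WT mouse 3 nearly reached KO mouse 1. Reg3d spanned 2.65 to 4.09 in KO and 2.67 to 3.73 in WT islets. Reg2, Reg3a and Reg3g, all below the gauge in every mouse, had their highest level in WT mouse 3, at 3.17, 2.89 and 2.89, with 1.55 to 2.85 in the KO mice. The mean over the 6 Reg genes was 4.52 in KO mouse 1, with 2.74 to 3.47 in the other KO mice, and 4.17 in WT mouse 3 and 2.68 to 2.88 in the other WT mice.

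Of the granule and secretory genes, Sycn, syncollin of the zymogen granule membrane, was at 8.96, 5.24, 4.86 and 4.09 in KO islets, against 5.49, 3.94, 6.69 and 4.75 in WT islets. The others were not above the gauge in the mean, but several exceeded it in the same mice. Rnase1, pancreatic ribonuclease, was at 5.14 in KO mouse 1, with 1.80 to 2.72 in the other KO mice, and at 3.98 in WT mouse 3 and 2.30 to 2.71 in the other WT mice. Zg16, a lectin of zymogen granules, was at 4.47 in KO mouse 1 and 4.31 in WT mouse 3, with 2.45 to 3.15 in the other KO and 2.22 to 2.95 in the other WT mice. Gp2, the main protein of the granule membrane, was at 4.72 in KO mouse 1 and 4.12 in WT mouse 3, with 2.57 to 2.65 in the other KO and 3.13 to 3.30 in the other WT mice. Dmbt1, a scavenger receptor-like secreted protein of mucosal epithelia, was at 4.65 in KO mouse 1 and 4.81 in WT mouse 3, with 2.20 to 3.31 in the other KO and 2.22 to 3.13 in the other WT mice. The serpin gene Serpini2 was at 3.35 in KO mouse 1 and at 1.59 in WT mouse 3, the lowest of all. Cuzd1, Tmed11, Aqp12 (an aquaporin of acinar cells) and Erp27 (a disulfide isomerase relative of the endoplasmic reticulum) lay between 1.71 and 4.08 in KO and 1.79 and 3.85 in WT islets, and each spanned no more than 1.23 log2 units over the 8 mice.

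The transcription factors of the acinar cell did not spread like the enzymes. Bhlha15, which drives the secretory machinery of acinar cells and was the only one of the 4 above the gauge, was at 3.98, 4.27, 4.37 and 4.21 in the KO mice 1 to 4, against 4.72, 3.89, 4.20 and 4.43 in the WT mice 1 to 4. KO mouse 1 was the lowest KO mouse here. Rbpjl, the subunit of PTF1 that is particular to acinar cells, was at 4.32 in KO mouse 1, with 3.31 to 3.53 in the other KO mice, against 3.12 to 3.42 in WT mice. Nr5a2, a nuclear receptor, spanned 3.02 to 3.78 in KO and 2.97 to 3.92 in WT islets, with WT mouse 3 the highest, and Ptf1a 2.12 to 2.67 in KO and 1.95 to 2.47 in WT islets on the brighter of its 2 probe sets. The median SD between mice was 0.291 in KO and 0.284 in WT islets over these 4 genes, about that of all genes, and 1.51 in KO and 0.943 in WT islets over the 13 proteases. Of the 13 proteases 10 were above the gauge in the mean, but of the 4 factors only Bhlha15 was. Spread in the dimmer factors could thus be missed. Of single factors, Nr5a2 was above the median SD of all genes in both genotypes, at 0.34 in KO and 0.40 in WT islets. Rbpjl was above it in KO islets alone (0.48) and Bhlha15 in WT islets alone (0.35).

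The excess of each mouse over the median of the other 3 of its genotype shows how far the 2 mice went the same way. Both were more than 1 log2 unit above the rest of their genotype for 16 of the 39 genes, against 104 of all 22180 genes with 1 symbol (0.469%). With values below the gauge set to the gauge, this held for 14 of the 39, against 33 of all genes (0.149%). Among the 20 genes of the whole array with the largest excess shared by both mice, 9 were members. The first member was Klk1 at rank 9, followed by Ctrb1, Reg1, Cpa1, Reg3b and Cpb1. All genes ranked above Klk1 were no members and are among those named below. The excess was larger in KO mouse 1 for 29 of the 39, and for 25 with values set to the gauge. It was 2.05 in KO mouse 1 and 2.22 in WT mouse 3 for Cpb1, 4.10 in KO mouse 1 and 1.94 in WT mouse 3 for Sycn, and 2.63 in KO mouse 1 and 0.72 in WT mouse 3 for Pnliprp1. Where the median of the other mice was not above the gauge, as for Dmbt1, Reg3b and 2210010C04Rik, the excess is set against background and its size cannot be read.

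**Figure D2:**
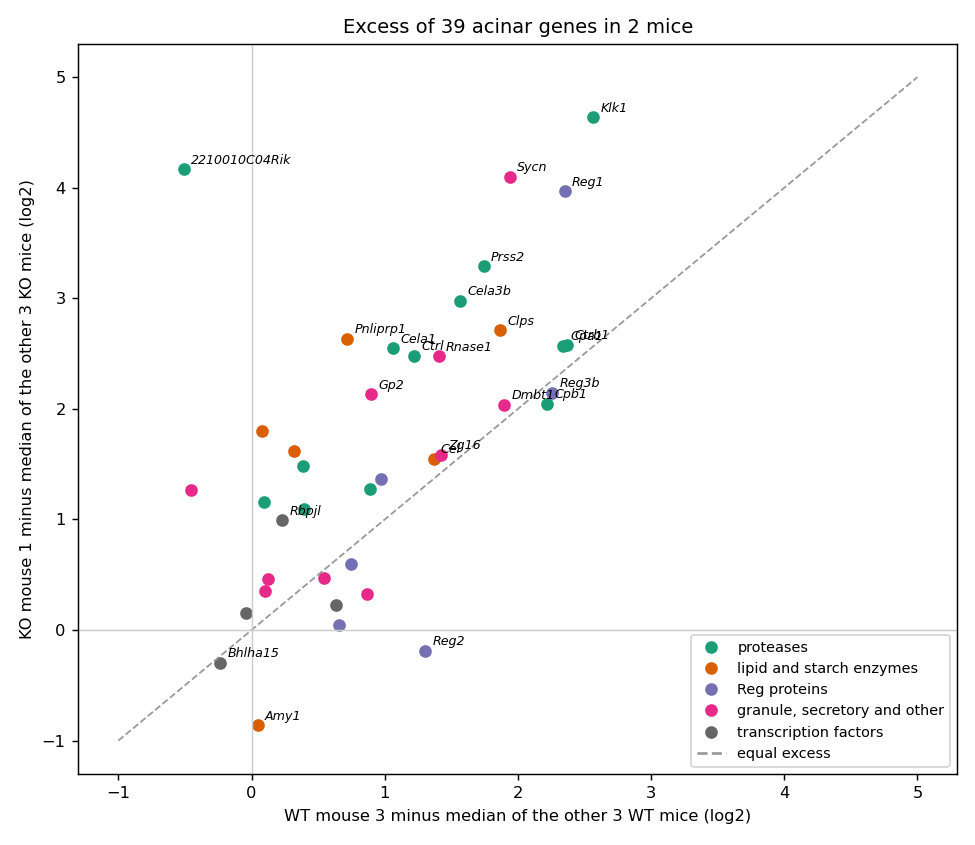
Excess of KO mouse 1 over the median of the other 3 KO mice (vertical axis, log2) against that of WT mouse 3 over the other 3 WT mice (horizontal axis, log2), with 1 point for each of the 39 acinar genes, coloured by role, and a dashed line where both are equal. Most enzymes lie above the line, Klk1 at 4.64 and 2.57, while Bhlha15 lies below 0 on both axes and 2210010C04Rik, whose other mice were all below the gauge, is high on the vertical axis alone.

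The genes that are no members and shared this excess most were not acinar genes. The 10 with the largest were Srsy, Vmn1r18, Olfr774, Gm20815, Olfr1282, Mir3475, Astx5, Olfr1384, Olfr652 and Sly, and 5 of them are olfactory or vomeronasal receptors. Olfr774 was at 5.06 in KO mouse 1, with 1.72 to 2.28 in the other KO mice, and at 4.80 in WT mouse 3 and 1.77 to 2.86 in the other WT mice. Receptor probe sets above the gauge numbered 222 in KO mouse 1, with 49 to 143 in the other KO mice, and 149 in WT mouse 3 and 40 to 95 in the other WT mice. KO mouse 4, with the lowest acinar levels, also had 143. Relative to the median receptor of the same array, the mean of the 39 genes was 3.06 in KO mouse 1, with 1.02 to 1.88 in the other KO mice, and 2.28 in WT mouse 3 and 1.32 to 1.91 in the other WT mice. The 95th percentile of the receptors differed more between arrays. It was 4.57 in KO mouse 1, with 3.22 to 4.19 in the other KO mice, and 4.03 in WT mouse 3 and 3.14 to 3.80 in the other WT mice. Against that percentile the lead of KO mouse 1 over the other KO mice was smaller, and WT mouse 3 was not above WT mouse 1. The part of this raised background in the acinar levels was not tested beyond these values.

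Of a list of 20 further acinar genes, 16 were measured, and they followed the pattern only in part. KO mouse 1 was the highest of the 8 for 5 of them, and both mice were on top for 3. Spink1, the inhibitor that guards against early trypsin activity, was at 8.12, 4.60, 5.04 and 2.83 in KO islets, against 4.57, 3.76, 5.5 and 3.21 in WT islets. Nupr1, a stress-induced gene of the pancreas, was at 5.64 in KO mouse 1, with 3.33 to 4.67 in the other KO mice, against 3.36 to 4.35 in WT mice. Rab3d, a small GTPase of the secretory granule, spanned 5.58 to 5.98 in KO and 5.44 to 5.95 in WT islets. None of the 16 passed the cut-off for KO against WT that is given below.

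The marker lists of other islet cells gave other orders of the mice. The mean of 17 β-cell genes was 7.20, 7.18, 7.27 and 7.17 in the KO mice 1 to 4, against 7.86, 7.0, 7.27 and 7.48 in the WT mice 1 to 4. In this mean the KO mice were level, while their acinar means ran from 3.18 to 5.44. Single β-cell genes went both ways. KO mouse 1 was the lowest KO mouse for 6 of the 17 and the highest of all 8 mice for 1, and its median excess was 0.10. Ins2, an insulin gene, was at 8.30 in KO mouse 1, the highest KO mouse, and 7.10 to 7.58 in the other KO mice, against 6.95 to 8.35 in WT mice. Iapp, the amylin that β-cells secrete with insulin, lay between 10.54 and 10.86 in KO and between 10.29 and 11.28 in WT islets. The hormones of the other islet cells, Gcg of α-cells and Ppy of PP cells, were at 8.66 and 7.20 in KO mouse 1, against 8.52 to 9.43 and 8.72 to 9.26 in the other KO mice, so that KO mouse 1 was the lowest of all 8 for Ppy. Sst of δ-cells was at 7.52 to 8.19 in KO and 7.62 to 8.69 in WT islets.

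Duct, endothelial, stromal and leukocyte genes differed from both in their order. The mean of 10 duct genes was 4.16 to 4.58 in KO and 4.08 to 4.99 in WT islets. That of 7 endothelial genes was highest in KO mouse 3, at 7.31, and 5.71 to 6.45 in the other KO mice, against 4.95 to 6.88 in WT mice. Stromal genes (9 measured) were highest in WT mouse 2, at 5.75, where acinar genes were the lowest of the WT mice, with 3.88 to 4.64 in KO islets. The 10 leukocyte and mast cell genes lay between 3.81 and 4.24 in KO and 3.87 and 4.28 in WT islets. Tff2, a trefoil peptide counted among the duct genes, had 7.52 in KO mouse 1, with 3.65 to 4.60 in the other KO mice, against 3.67 to 5.18 in WT mice. It was chosen after its values were seen, and it was the only one of the 10 duct genes with KO mouse 1 as the highest of the 8. The median excess of KO mouse 1 over the 10 was 0.07.

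**Figure D3:**
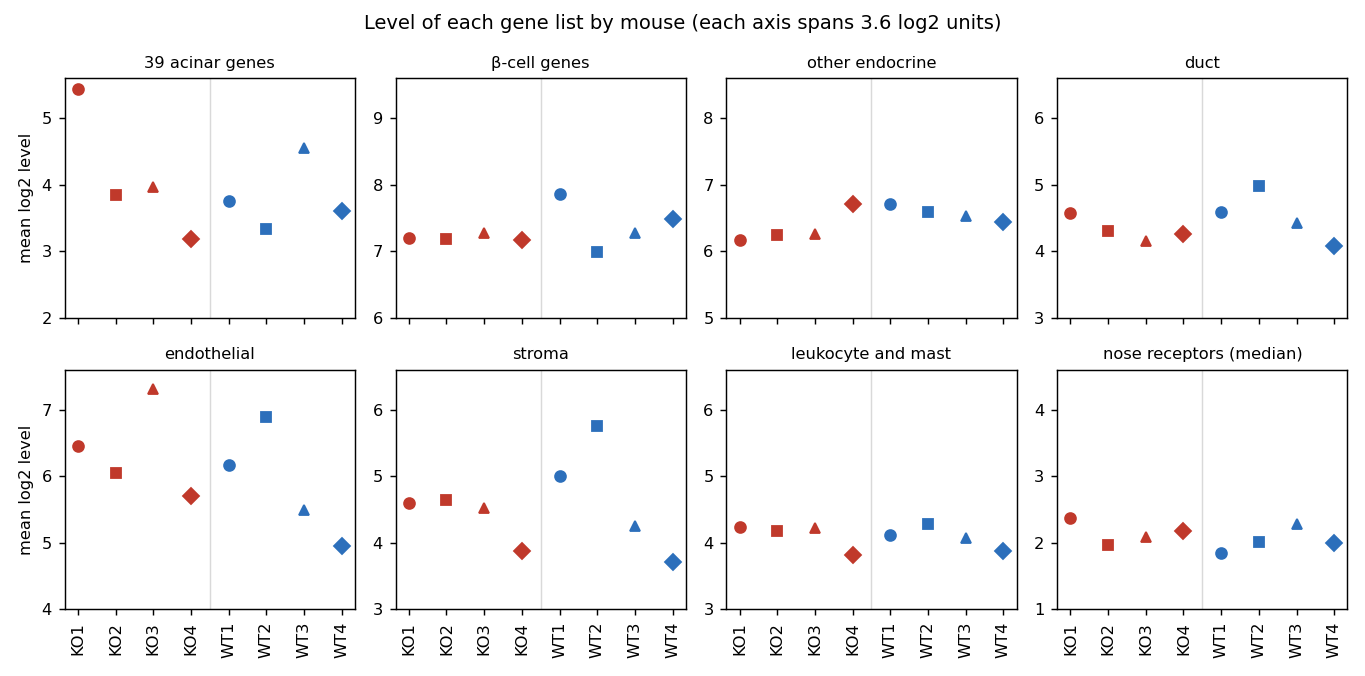
Mean log2 level of the 39 acinar genes and of 6 marker lists, and the median of the receptor probe sets, in KO mice 1 to 4 and WT mice 1 to 4 (1 point per mouse, KO red at the left and WT blue at the right, every vertical axis 3.6 log2 units long). The acinar panel has KO mouse 1 and WT mouse 3 on top, at 5.44 and 4.56, whereas the β-cell panel is level over the KO mice, at 7.17 to 7.27.

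KO and WT islets were then compared for each gene with limma. None of the 39 acinar genes differed between the genotypes past the study's cut-off, an unadjusted p below 0.05 and at least a 1.2-fold change, which 3.49% of all 41345 probe sets passed. None had an unadjusted p under 0.05, the lowest being 0.181 for Reg1, or a Benjamini-Hochberg adjusted p below 1.00. Over all probe sets, 0 (0%) had an adjusted p under 0.05. The methods' t-test also called 0 of the 39 at the threshold. The KO and WT values overlapped for all 39, while 2.36% of all probe sets had values that did not overlap.

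With all 8 mice the signs leaned toward KO. The log2 fold change was above 0 for 32 of the 39 genes, with a median of 0.27, against 11089 of 22180 genes and a median of 0.00 over all genes. Reg1 averaged 6.92 ± 2.27 in KO and 5.47 ± 1.12 in WT islets (SD, n = 4 each), a difference of 1.44 with a standard error of 1.00. Clps was at 0.93 (standard error 0.74), Cela1 at 0.71 (0.70), Reg3b at 0.67 (0.74), Sycn at 0.57 (0.98) and Ctrb1 at 0.55 (0.84). Cpa1, Cpb1 and Prss2 were at 0.41, 0.29 and 0.42, Cel at −0.13 and Bhlha15 at −0.10. For 38 of the 39 genes the difference was smaller than the SD between mice within a genotype.

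Of single mice, leaving out KO mouse 1 moved the median difference most. Without it the median over the 39 genes was −0.09, 13 were above 0 and 26 below, and Ctrb1 was at −0.21, Cpa1 at −0.26, Sycn at −0.49 and Klk1 at −1.21, while Reg1 remained at 0.39 (standard error 0.65) and Clps at 0.21 (standard error 0.55). Without KO mouse 1 and WT mouse 3 together the median was 0.06, with 25 genes above 0. Without KO mouse 4, the mouse of the lowest levels, it was 0.52. Mice of the other genotype also moved the median, to 0.12 without WT mouse 2 and to 0.47 without WT mouse 3. Leaving out KO mouse 1 brought Gp2 past the threshold, lower in KO by a log2 difference of −0.84 (standard error 0.27; limma unadjusted p = 0.0136, adjusted p = 1.00), where 3.21% of all probe sets passed. Its mean was not above the gauge, and all 3 remaining KO mice were below it, so that the size of the difference is uncertain. Leaving out KO mouse 4 brought Reg1 past it at 2.17 (limma unadjusted p = 0.0478, adjusted p = 1.00), where 3.64% of all probe sets passed. Reg2, below the gauge in every mouse, passed without WT mouse 3, at 0.50 (limma unadjusted p = 0.0358, adjusted p = 0.920), where 4.63% of all probe sets passed. A single gene of 39 is no larger a share than these. Gp2 and Reg2 passed without KO mouse 1 and WT mouse 3 together, where 4.29% of all probe sets passed.

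The number of mice left wide intervals for most enzymes. The 95% interval of the KO minus WT difference ran from −1.35 to 2.17 log2 units for Cpa1, from −1.33 to 2.42 for Ctrb1, from −0.80 to 3.68 for Reg1 and from −2.62 to 2.79 for Klk1. It was narrower for Try4, from −0.40 to 1.18, Ctrc, from −0.57 to 1.17, and Pnliprp2, from −0.55 to 1.35, and narrowest of the 18 brighter genes for Bhlha15, from −0.60 to 0.40.

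**Figure D4:**
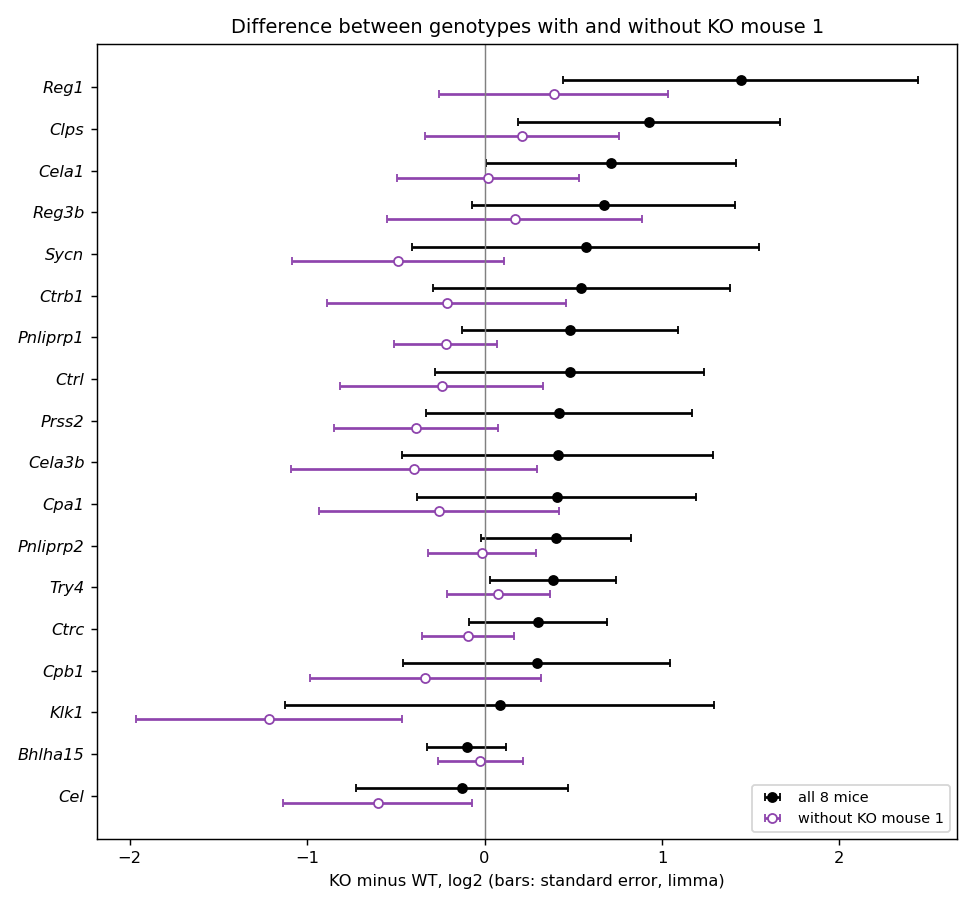
KO minus WT difference (log2, horizontal axis; bars are limma standard errors) of the 18 acinar genes above the gauge, from all 8 mice (filled black points) and without KO mouse 1 (open purple points). With all mice 16 of the 18 points lie above 0, and without KO mouse 1 only 5 do. KO mouse 1 enters the mean that chose the 18 genes, so these counts are no test.

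Over the whole array, 1444 probe sets passed the threshold in the fit of genotype alone and 1468 with the mean of the 39 acinar genes in each mouse as a covariate, and 1106 passed in both. Without KO mouse 1 and WT mouse 3 together 1773 passed.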

How the data were processed

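Per the labels and the methods, RNA of islets from 4 Fzd9 KO and 4 Fzd9 WT mice was hybridised to 1 array each. The deposited table holds log2 expression. The authors obtained it by RMA (background subtraction, quantile normalization and summary of probes into probe sets), and the submitters' notes also list Partek, both with no version. Probe sets with 1 symbol (23521 of 41345) were named from GEO's platform annotation, 23328 of them checked through Entrez ID against RefSeq. The brightest probe set of each gene was used, which left a choice only for Ptf1a, with 2.

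All 41345 probe sets were fitted with limma (version 3.58.1, R 4.3.3), KO against WT, with no filter and no added normalization. p-values were adjusted by Benjamini-Hochberg over all of them. Genes named are all members, islet hormones, the 10 other genes with the largest excess shared by KO mouse 1 and WT mouse 3, and up to 3 genes of a marker list. The members, lists and rules were chosen with earlier results of these data known. The fit was tested on simulated data. Alternatives were an ordinary t-test, trend, robust moderation, array weights, 3 normalizations, a brightness filter, averaging the probe sets of a gene, the mouse number as a block, and leaving out mice. Mice are separate animals, and the labels do not state that their numbers pair them. The number of arrays limits the precision.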

Additional observations from a re-analysis of the deposited data

Results flagged for a closer look

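Of 90 groups of 4 mice (39 genes, their 5 role groups and the mean over all, in each genotype), 3 held a mouse far from the other 3, where 4.5 are due by chance at 1 in 20. Gp2 was at 4.72 in KO mouse 1, with 2.65 as the next KO mouse. Reg3d was at 3.73 in WT mouse 3, with 2.82 next, and the mean of the 6 Reg genes was at 4.17 in WT mouse 3, with 2.88 next.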

How the results depend on the processing

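No member passed the threshold under the other tests, the array weights, the 3 normalizations, the brightness filter, averaging the probe sets of a gene or the mouse number as a replicate block, in which the median log2 fold change stayed between 0.21 and 0.27, or was 0.42 over the 18 genes of the brightness filter. Leaving out each mouse in turn gave 0 to 1 members past it and a median of −0.09 to 0.52, and 2 of 39 passed (Gp2 and Reg2) without WT mouse 3 and KO mouse 1 together. Of all 41345 probe sets, 1201 to 1913 passed with single mice left out and 1773 (4.29%) without both. The spreads without both mice and the values set to the gauge were added after seeing the data. Among the 16300 brighter probe sets 511 passed. Over the mice left out in turn, the log2 fold change ran from −0.26 to 0.93 for Cpa1, −0.33 to 0.90 for Cpb1, −0.60 to 0.39 for Cel, −0.40 to 1.14 for Cela3b, −0.21 to 1.14 for Ctrb1, −0.093 to 0.57 for Ctrc, −0.24 to 1.03 for Ctrl, −0.22 to 0.87 for Pnliprp1, −0.014 to 0.75 for Pnliprp2, −0.39 to 0.83 for Prss2, −0.49 to 1.14 for Sycn, −1.21 to 0.98 for Klk1 and −0.24 to 0.036 for Bhlha15. Klk1 also turned to −0.066 with array weights, and without WT mouse 3 and KO mouse 1 together Klk1, Pnliprp1 and Prss2 were at −0.65, −0.049 and −0.020. Cela1, Clps, Try4, Reg1 and Reg3b stayed above 0 in every one of these settings, some of them barely. Without KO mouse 1 Cela1 was at 0.018 (standard error 0.51) and Try4 at 0.078 (standard error 0.29). Reg3b, above the gauge in 3 of the 8 mice, was at 0.12 without WT mouse 1. The mouse number as a replicate block left 1484 of all probe sets past the threshold, against 1444, and deviations of same-numbered mice correlated at −0.10, 0.02, 0.07 and 0.24.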
